A study of Homo sapiens with 6 samples.

Results

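Cytosolic ribosomal protein mRNAs were followed gene by gene in RBM12-depleted human iNeurons with and without isoproterenol. The family was chosen with earlier results of these data known, so its shares beside those of all genes are a description. Its members were taken by name, as every gene whose symbol was RPL or RPS with a number, RPLP0 to RPLP2 or RPSA. An optional A, X, L or number could close the symbol. This rule found 84 genes of the 19823 listed, 52 of the large (60S) and 32 of the small (40S) subunit. Of these, 82 (51 large, 31 small) had more than 5 reads in at least 4 samples and were tested among 18130 genes. RPS10, with normalized counts of 5.22, 3.87 and 5.17 without and 5.99, 11.5 and 4.1 with agonist (replicates 1 to 3), and RPL10L, with 5.22, 0.968 and 3.1 and 2.99, 2.31 and 5.13, did not pass this filter and are given here as values only. FAU and RACK1, which encode proteins of the small subunit under other names, are described separately.

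The study measured poly(A) RNA in glutamatergic neurons made from the human pluripotent stem cell line WTc11 by doxycycline-inducible expression of the neurogenic factor NGN2. In all 6 samples RBM12, which encodes an RNA-binding protein, had been knocked down by CRISPR interference, and all came from the parental line with native β2-adrenergic receptor, so none of them shows neurons with unchanged RBM12. The 3 untreated samples were compared with 3 that received isoproterenol, an agonist of the β2-adrenergic receptor that raises cAMP. The labels give neither dose nor duration for these samples, and nothing says that same-group samples came from separate differentiations, so the p-values measure the spread between these samples, which may be technical. RBM12 itself was at 244, 279 and 267 normalized counts without and 195, 238 and 233 with agonist (replicates 1 to 3); with no control guide here, these values do not check the knockdown.

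A eukaryotic ribosome joins 1 copy of nearly every ribosomal protein, so the genes for both subunits are transcribed at high levels in most cells. Many of their mRNAs begin with a 5′ terminal oligopyrimidine (TOP) tract, a C at the cap followed by an uninterrupted run of pyrimidines, through which mTOR signaling and the RNA-binding protein LARP1 control their translation and stability. In neurons, ribosomal protein mRNAs are also carried into axons and dendrites.

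Ribosomal protein mRNAs were lower with isoproterenol by a small amount that extended over most of the genes. The median log2 fold change of the 82 tested genes was -0.081, a change of -5.48%, against 0.0015 over all genes tested. The value was below 0 in 75 of 82 genes (91.5%, against 49.5% of all genes tested). Among genes averaging at least 1000 normalized counts over the 6 samples it was below 0 in 70 of 71 ribosomal protein genes, against 52% of the 4640 genes of that level. The large subunit median was -0.086 and the small subunit median was -0.070, with quartiles of -0.12 to -0.051 and -0.11 to -0.049.

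No single gene passed a false discovery rate (FDR) of 0.05 in limma without the pairing of samples, where the smallest adjusted p of the 82 was 0.207, for RPL7 (0.0165% of all genes tested passed). At an unadjusted p under 0.05, 23 of the 82 passed, all lower, against 3.29% of all genes lower at that level, and edgeR and DESeq2 without pairs also called 0 members after adjustment. The labels number the replicates in both groups, and same-numbered samples deviated together over the 11587 genes averaging at least 100 normalized counts. With the replicate number as a block, limma called 31 of the 82 genes lower (37.8%) and 0 higher, against 2.06% of all genes tested called lower, 2.82% called higher and 5.47% called lower among those with a mean of at least 1000. Of the 31, 22 encode large and 9 small subunit proteins. edgeR with the same block called 35 (2.47% of all genes lower), among them all 31, and DESeq2 with the block called 5 (0.259% of all genes lower), all among the 31. In limma with the block, leaving out pair 1, 2 or 3 gave 22, 25 and 14 members lower (1.15%, 1.74% and 0.976% of all genes), and TMM scaling, total-count scaling and a length and GC correction gave 32, 30 and 40 (2.37%, 1.92% and 3.63% of all genes). With 2 residual degrees of freedom per gene, and fewer where a pair was left out, these blocked tests rest on a spread shared across genes. Below, a gene is said to have fallen only where the blocked limma test passed, and its p without the block is given in the text where single values are listed.

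**Figure D1:**
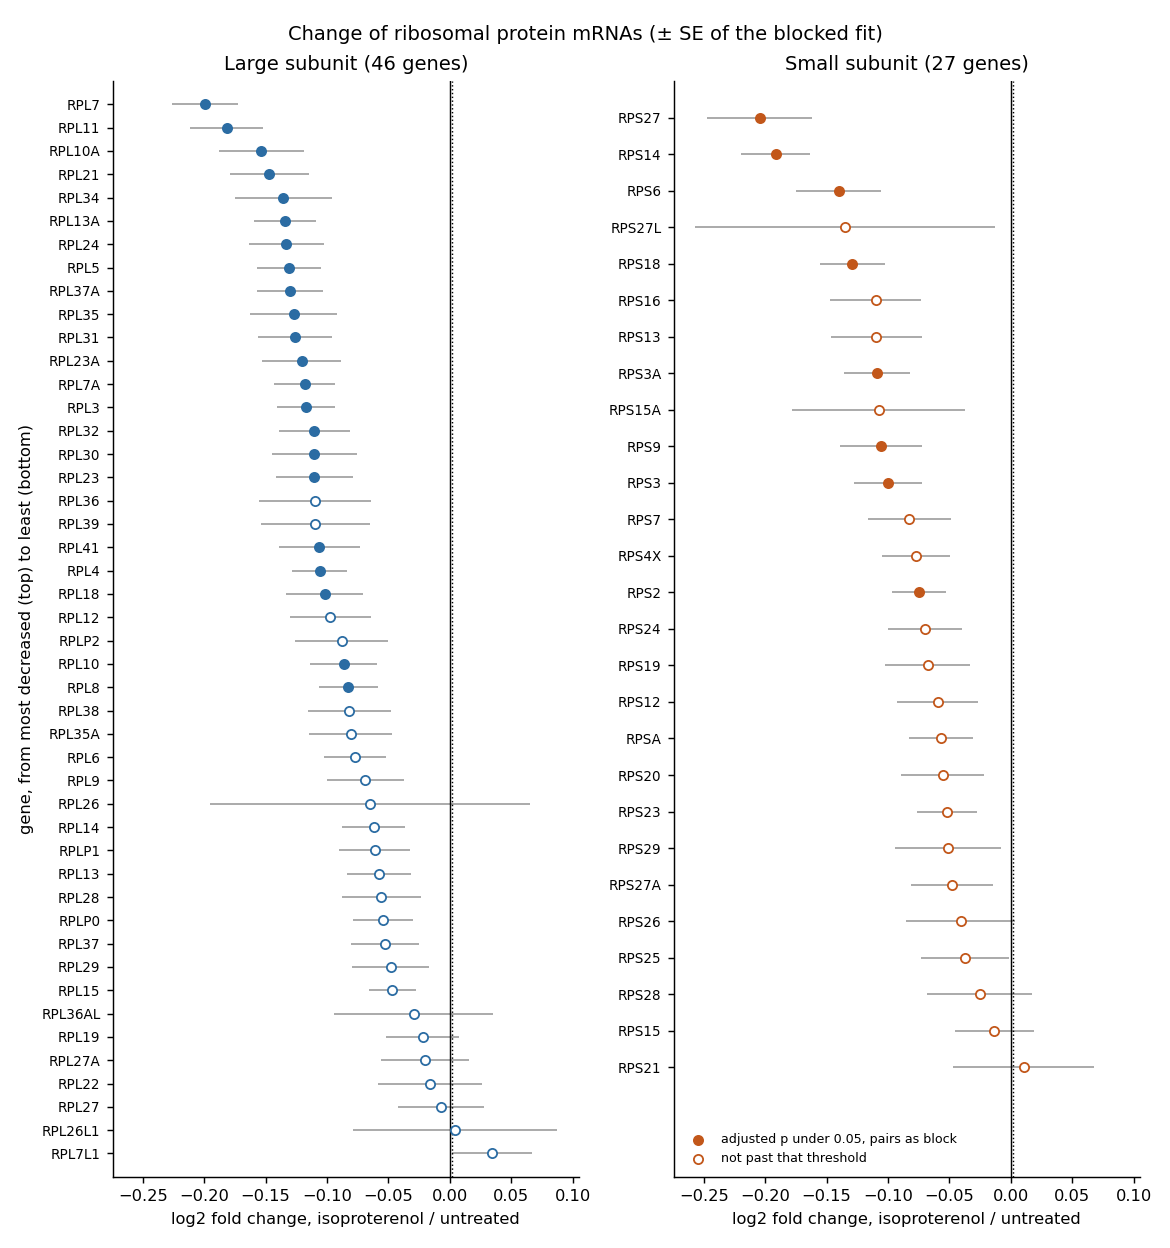
Log2 fold change of isoproterenol over untreated samples (horizontal axis, bars show ± SE of the blocked limma fit) for 46 large and 27 small subunit genes with a mean of at least 100, ordered from most to least decreased, n = 3 samples a group. Filled points passed an adjusted p of 0.05 in the blocked fit, open points did not, the solid line marks 0 and the dotted line the median of all genes tested; filled points lie between -0.20 (RPS27) and -0.075 (RPS2).

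The share of all reads that came from the 84 genes does not use the deposited scaling between samples. It was 1.36%, 1.47% and 1.35% in untreated replicates 1 to 3 and 1.29%, 1.38% and 1.28% with isoproterenol, or 1.39% ± 0.065 and 1.31% ± 0.055 (mean ± SD, n = 3 each). The groups overlapped, because isoproterenol replicate 2 lay above untreated replicates 1 and 3, whereas within each pair the isoproterenol sample was lower, with differences of -0.0715, -0.0911 and -0.0765 percentage points. Large subunit genes took 0.911% ± 0.045 of reads in untreated and 0.858% ± 0.038 in isoproterenol samples, and small subunit genes took 0.482% ± 0.020 and 0.456% ± 0.017. Relative to the untreated mean, these are changes of -5.81% and -5.55%. In bulk RNA, fewer cells with high ribosomal protein mRNA and less of it per cell cannot be told apart.

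**Figure D2:**
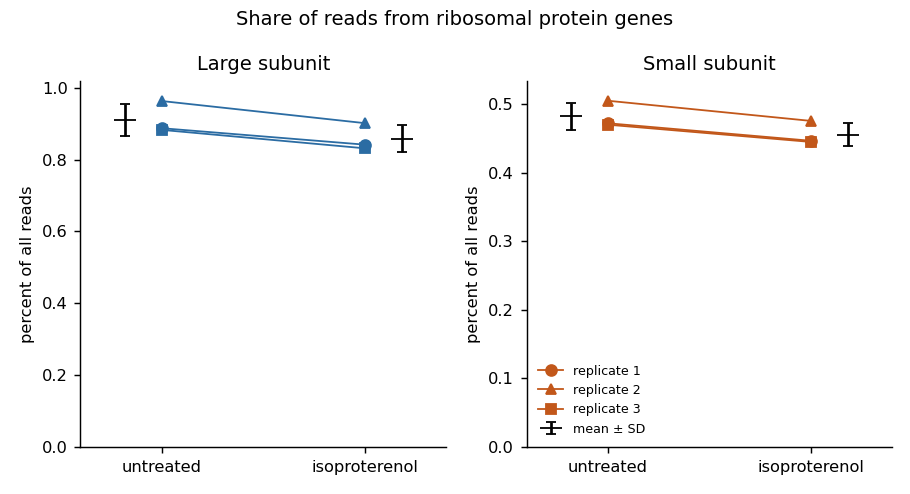
Percent of all recovered reads from large (left) and small (right) subunit genes in each sample, with lines joining same-numbered samples and black bars for the mean ± SD of 3 samples. All 3 lines descend in both panels, and replicate 2 stands above the other replicates in both groups.

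Untreated replicate 2 had the highest value of the 6 samples in 61 of the 82 genes, and isoproterenol replicate 3 or 1 the lowest in 40 and 27. Leaving out untreated replicate 2 gave a median log2 fold change of -0.045. Leaving out isoproterenol replicate 2 gave -0.11, and the fit without pairs then called 2 members lower (0.132% of all genes tested, 24 genes, were called lower in that fit). Within pairs the median was -0.067, -0.086 and -0.10 in pairs 1, 2 and 3, and 66, 74 and 75 of the 82 genes were below 0. In 57 genes (69.5%) the isoproterenol sample was lower in all 3 pairs, against 17.6% of all genes tested, and 0 genes were higher in all 3, against 18.5%. In 19 genes (23.2%) all 3 isoproterenol values lay below all 3 untreated values, against 6.19% of all genes, and the reverse held for 0 genes, against 6.73%.

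**Figure D3:**
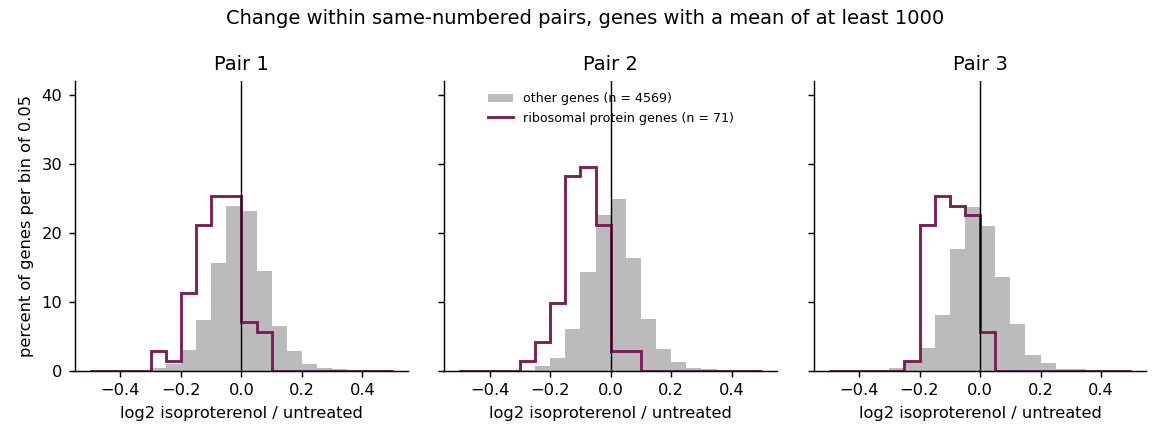
Distribution of the log2 ratio of the isoproterenol to the same-numbered untreated sample in pairs 1, 2 and 3, for the 71 ribosomal protein genes (outline) and the 4569 other genes (grey) with a mean of at least 1000, as percent of genes per bin of 0.05. In each pair the outline sits to the left of the grey distribution, which is centred near 0.

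The size of the decrease differed from gene to gene, but its order was only partly the same in the 3 pairs. Across the 71 genes with a mean of at least 1000, the log2 fold changes had an SD of 0.047, against a median SE of 0.032 with the block and 0.05 without it. The pair values of these genes correlated across genes at Pearson r 0.15 between pairs 1 and 2, 0.39 between pairs 1 and 3 and 0.28 between pairs 2 and 3 (Spearman rho 0.11, 0.36 and 0.29, n = 71 genes). The pairs share no sample, yet genes of a library share its depth and are not independent. Of the 10 genes lowest in a pair, 1 was shared by pairs 1 and 2, 4 by pairs 1 and 3 and 4 by pairs 2 and 3. Neighbours in the order given here therefore do not differ beyond their errors, and the extremes are described as values.

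The start of each gene was read from RefSeq, because the TOP tract belongs to the transcript's first bases. Promoters of 66 of the 82 tested members were in the table used. Shown are 30 bases around the annotated start (15 before it, the start base and the 14 after it, assembly GRCh38.p14), first for the 6 of the 8 most decreased genes and then for the 5 least decreased genes with a mean of at least 100 that the table holds. Capitals mark the unbroken run of C and T that contains the start base.
RPS27, chr1:153990747-153990776, plus strand: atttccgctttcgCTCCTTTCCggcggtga
RPS14, chr5:150449725-150449754, minus strand: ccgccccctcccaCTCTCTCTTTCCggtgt
RPL11, chr1:23691791-23691820, plus strand: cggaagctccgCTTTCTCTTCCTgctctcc
RPL10A, chr6:35468386-35468415, plus strand: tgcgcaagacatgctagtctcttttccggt
RPL21, chr13:27251543-27251572, plus strand: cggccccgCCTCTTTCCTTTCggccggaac
RPS6, chr9:19380222-19380251, minus strand: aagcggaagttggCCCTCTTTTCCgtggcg
RPS15, chr19:1438381-1438410, plus strand: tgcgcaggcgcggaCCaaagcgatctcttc
RPL27, chr17:42998404-42998433, plus strand: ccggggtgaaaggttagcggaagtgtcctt
RPL26L1, chr5:172958714-172958743, plus strand: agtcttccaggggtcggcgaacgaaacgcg
RPS21, chr20:62387088-62387117, plus strand: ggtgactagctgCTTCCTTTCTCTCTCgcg
RPL7L1, chr6:42879601-42879630, plus strand: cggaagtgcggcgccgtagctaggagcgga

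Among these, RPS27, RPS14, RPL11, RPL21 and RPS6 begin inside a pyrimidine run, as does RPS21, inside a long run. RPL10A, RPL27, RPL26L1 and RPL7L1 begin at a purine, and RPS15 begins within a pair of C. The windows of RPL10A, RPS15 and RPL27 hold further runs of C and T after the annotated start, which were not counted. Over all 66 members, 46 (69.7%) had a C at an annotated start followed by at least 4 further C or T, against 7.2% of the 11682 tested genes in the table and 5.14% of all 27305 genes in it. The tract was present in 19 of the 23 members that fell with the block and in 27 of the 43 that did not. The median log2 fold change was -0.099 for members with it and -0.049 for the 20 without it. Over all tested genes in the table these medians were -0.011 and 0.00047. Annotated starts can differ from those used in neurons, and a gene with several starts had more chances of a match.

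The cAMP response element TGACGTCA, searched on both strands from 250 bases before to 50 after the start, was present in 3 of the 66 members (4.55%) against 3.66% of tested genes, and its shorter form TGACG, which every full element also contains, in 45.5% against 39.6%. The E-box CACGTG was present in 7.58% against 12.3%, and CCGGAAG, the core bound by ETS factors, in 34.8% against 20.6%. TATAAA was present in 9.09% against 9.03%. A match describes the letters and is not evidence of binding.

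In all 9 fits run with the block, which used other tests, other scaling, a length and GC correction or left out 1 pair, the same 5 genes passed, among them RPL7, RPS14, RPL11 and RPL13A. RPL7, the uL30 protein of the large subunit, was at 5834, 5901 and 5552 normalized counts without and 4807, 5406 and 4855 with agonist (replicates 1 to 3). All 3 isoproterenol values lay below all 3 untreated values. RPL7 fell by 0.20 on the log2 scale (SE 0.027 with the block), with an adjusted p of 1.11e-08 in limma with the block and 0.207 without it. RPS14, a small subunit protein known from the 5q- form of myelodysplasia, in which 1 copy of its gene is lost, was at 5147, 5089.7 and 4869 and 4199.8, 4720.3 and 4320.5. Its start lies in a run of 12 pyrimidines. These groups did not overlap either. Its log2 fold change was -0.19 (SE 0.028), with a limma adjusted p of 2.30e-07 with the block and 0.238 without it.

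RPL11, which joins RPL5 and 5S RNA in a particle that can bind and inhibit the p53 ligase MDM2, was at 3709, 4111 and 3793 without and 3316, 3592 and 3328 with agonist (replicates 1 to 3). The highest isoproterenol value, in replicate 2, lay below the lowest untreated value. The log2 fold change was -0.18 (SE 0.030, limma adjusted p 2.97e-06 with and 0.273 without the block), and the 3 pair values, -0.16, -0.19 and -0.19, were close to each other. Its partner RPL5 was at 5699, 6153 and 5517 and 5116, 5583 and 5163, with overlapping groups and a fall of 0.13 on the log2 scale (SE 0.026, limma adjusted p 0.000195 with and 0.533 without the block). RPL13A, which also silences selected mRNAs when released from the ribosome, was at 5915, 6933 and 6226 and 5496, 6177 and 5691. Replicate 2 was the highest in each group, so the groups overlapped, and the fall of 0.13 on the log2 scale (SE 0.025) had a limma adjusted p of 7.40e-05 with and 0.604 without the block.

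The largest decrease among genes with a mean of at least 100 was that of RPS27, a zinc finger protein of the small subunit, at 1387, 1723 and 1457 without and 1280.2, 1439 and 1234 with agonist (replicates 1 to 3). Untreated replicate 2 stood well above the other 5 samples, and isoproterenol replicate 2 exceeded untreated replicate 1. The log2 fold change was -0.20 (SE 0.043, limma adjusted p 0.00045 with and 0.582 without the block), and between -0.27 and -0.11 when 1 sample was left out, the latter without untreated replicate 2. RPL10A, a protein of the L1 stalk near the exit site for transfer RNA, was at 2363, 2671 and 2458 and 2231, 2302 and 2195, with no overlap and a fall of 0.15 on the log2 scale (SE 0.035, limma adjusted p 0.00165 with and 0.469 without the block). RPL21 was at 2944, 3277 and 2834 and 2687, 2941 and 2549. Its groups overlapped, while its pair values of -0.13, -0.16 and -0.15 were nearly equal, with a limma adjusted p of 0.000953 with and 0.596 without the block. RPS6, the small subunit protein phosphorylated by the S6 kinases downstream of mTOR, was at 2441, 2705 and 2561 and 2294, 2409 and 2286. Its groups did not overlap, and its log2 fold change was -0.14 (SE 0.034, limma adjusted p 0.0042 with and 0.519 without the block).

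**Figure D4:**
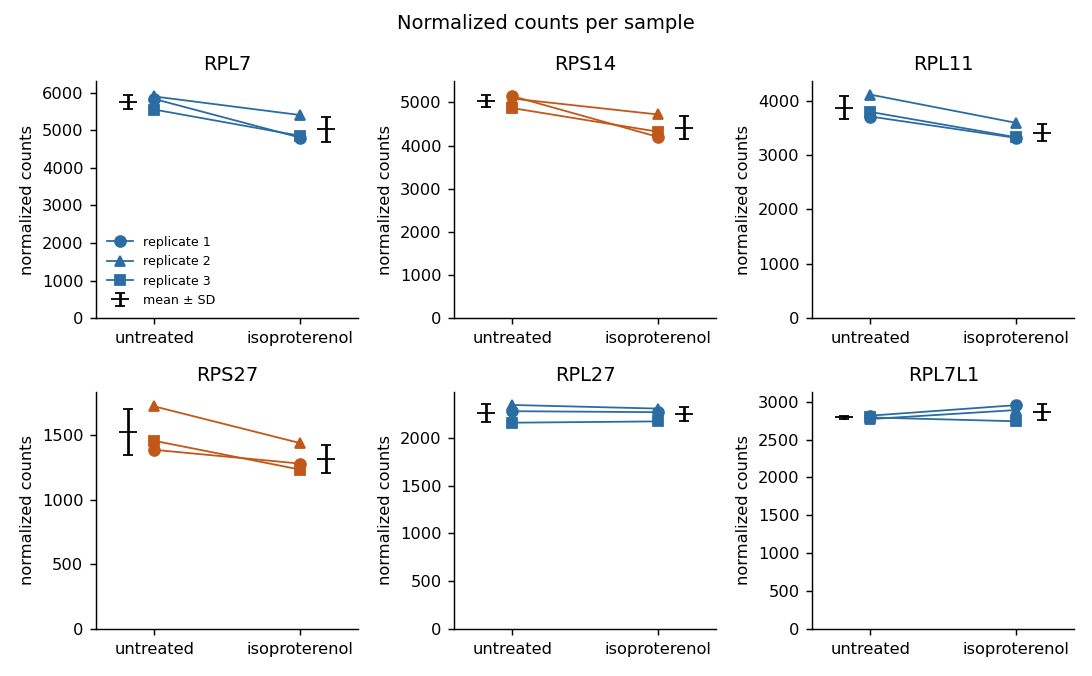
Normalized counts in each sample (vertical axes start at 0) for 4 of the most decreased genes, RPL7, RPS14, RPL11 and RPS27, and 2 with little difference, RPL27 and RPL7L1, with lines joining same-numbered samples and black bars for the mean ± SD of 3 samples. The lines of the first 4 genes descend in all 3 pairs, RPL27 is nearly level, and RPL7L1 is higher in pairs 1 and 2 and lower in pair 3.

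The other large subunit genes that fell in the blocked fit did so by between 0.083 and 0.14 on the log2 scale. Without the block, the limma adjusted p of those named here lay between 0.435 (RPL37A) and 0.849 (RPL4). Those at the peptidyl transferase centre were RPL3, at 8169 ± 517 without and 7531 ± 479 with agonist (log2 fold change -0.12, limma block adjusted p 0.000224), and RPL8, at 7970.0 ± 123 and 7528 ± 216 (-0.083, 0.0222). The RPL8 groups did not overlap, whereas the RPL3 groups did. RPL4, which lines the exit tunnel for the growing protein, was at 9727 ± 996 and 9034 ± 875 (-0.11, limma block adjusted p 0.000544), and its untreated replicate 2 lay above the other samples at 10874. RPL23A and RPL35, at the tunnel's outer end, had log2 fold changes of -0.12 and -0.13, with limma block adjusted p of 0.0107 and 0.0158. RPL10, among the last proteins to join the 60S subunit, had -0.086 (0.042), and RPL24, which takes part in a bridge between the subunits, had -0.13 (0.00168). The rest of these genes were RPL34 (-0.14), RPL37A (-0.13), RPL31 (-0.13), RPL7A (-0.12), RPL32 (-0.11), RPL30 (-0.11), RPL23 (-0.11), RPL41 (-0.11), which encodes the shortest ribosomal protein, and RPL18 (-0.10), with limma block adjusted p between 0.00032 (RPL37A) and 0.0394 (RPL30).

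Other small subunit genes that fell in the blocked fit were RPS18, RPS3A, RPS9, RPS3 and RPS2. Their limma adjusted p without the block lay between 0.536 (RPS18) and 0.700 (RPS3A). RPS18, in the head of the subunit, was at 5540.1 ± 296 without and 5066 ± 264 with agonist (log2 fold change -0.13, limma block adjusted p 0.000291). RPS3, RPS2 and RPS9, which surround the entry channel for mRNA, had log2 fold changes of -0.10, -0.075 and -0.11 with limma block adjusted p of 0.0166, 0.024 and 0.0455. RPS3A had -0.11 (0.00506), with pair values of -0.0026, -0.17 and -0.16, so pair 1 contributed almost nothing. RPS9 in turn rested most on pair 1, at -0.18, -0.040 and -0.094.

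The proteins of the lateral stalk, which recruits elongation factors, did not pass in the blocked fit. RPLP0 was at 6900.1, 7476 and 7123 without and 6784, 7425 and 6514 with agonist (replicates 1 to 3) (log2 fold change -0.054, limma block adjusted p 0.231). RPLP1 had -0.061 (0.26), RPLP2 had -0.088 (0.194) and RPL12, at the base of the stalk, had -0.10 (0.0678). All 4 values were below 0, and only RPL12 of them had groups that did not overlap. RPS16 and RPS13, at -0.11 and -0.11, and RPL6, at -0.077, lay close to the threshold, with limma block adjusted p of 0.0662, 0.0662 and 0.0537. RPL15, the member with the most reads, was at 16482, 17474 and 15988 and 16029, 17203 and 15148, a log2 fold change of -0.047 with a limma block adjusted p of 0.156. Without RPL15 the share of reads from members was 1.31% ± 0.061 and 1.24% ± 0.051.

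In all, 51 tested members did not pass in the blocked fit. Their median log2 fold change was -0.055, 44 of them were below 0 and 40 had a mean of at least 1000. RPS23, at the decoding centre, was at 6886, 6973 and 6743 without and 6650.5, 6732 and 6491 with agonist (replicates 1 to 3). Its groups did not overlap and its 3 pair values, -0.050, -0.051 and -0.055, were nearly equal, but the decrease was small (limma block adjusted p 0.257). RPL36 and RPL39 had larger log2 fold changes of -0.11 and -0.11, with pair values of -0.13, -0.22 and 0.019 and -0.12, -0.21 and 0.0036, so neither was lower in pair 3. RPS24 (-0.070), RPS19 (-0.068) and RPS26 (-0.041) were each lower in 2 of 3 pairs. Of the 71 members with a mean of at least 1000, 55 were lower in all 3 pairs (23.8% of all genes of that level were), 15 in 2 and 1, RPL7L1, in 1.

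Among genes with a mean of at least 100, those with the highest fold changes were RPL7L1, RPS21, RPL26L1, RPL27 and RPS15. RPL27 was at 2281, 2346 and 2160.0 without and 2270.1, 2308 and 2174 with agonist (replicates 1 to 3), and the groups overlapped over nearly their whole range. Its log2 fold change was -0.0070 ± 0.035 (SE with the block, limma block adjusted p 0.956). RPS15 was at 2881, 2811 and 2909.9 and 2809.9, 2776 and 2939, with -0.013 ± 0.032 (0.901). RPS21 was at 709, 774 and 722 and 766, 782 and 676, higher in pairs 1 and 2 and lower in pair 3, with 0.010 ± 0.057 (0.959). A p above the threshold does not show that these mRNAs kept their level: for RPS21 a decrease of the size of the members' median lay within 2 SE of its value.

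Paralogs allow the same comparison within a protein family. RPL7L1, a relative of RPL7 that acts in large subunit assembly, was, in the fit without pairs, the only member with a mean of at least 1000 and a fold change above 0. It was at 2815, 2770.3 and 2791 without and 2954, 2889 and 2741 with agonist (replicates 1 to 3) (log2 fold change 0.035 ± 0.033, limma block adjusted p 0.679). The log2 fold change of RPL7L1 exceeded that of RPL7 by 0.23, and by 0.35, 0.19 and 0.17 in pairs 1, 2 and 3. This difference was not tested, because RPL7 was known to be the most decreased large subunit gene with a mean of at least 100.

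RPL22L1, which can replace RPL22 in ribosomes, was at 31.3, 23.2 and 24.8 and 34.9, 21.9 and 41, and RPL22 at 1412, 1464 and 1459 and 1405, 1532 and 1355. Neither passed (log2 fold change 0.26 ± 0.28 and -0.016 ± 0.043), and at about 30 reads a change of RPL22L1 smaller than its SE was not detectable. RPL39L, a testis-enriched relative of RPL39, was at 61.3 ± 10.2 and 61 ± 5.75, with 0.0039 ± 0.19, and RPL39 at 1368 ± 141 and 1263 ± 37.2, with -0.11 ± 0.045. RPS27L, which is induced by p53, was at 172, 148 and 158 and 151, 141 and 144, a log2 fold change of -0.13 ± 0.12 beside the -0.20 of RPS27. RPL26L1 exceeded RPL26 and RPL36AL exceeded RPL36A, in counts and more so per kilobase of exon. Undivided, the untreated means were 332 against 142 and 571 against 26.4 normalized counts. The lengths take in all annotated exons, 1164 against 2476 bases and 676 against 3965 bases, so the ratios per kilobase depend on the annotation. RPL26L1 had 285 ± 0.475 normalized counts per kilobase in untreated samples against 57.2 ± 10.9 for RPL26, and RPL36AL had 845 ± 30.7 against 6.66 ± 2.18 for RPL36A. In isoproterenol samples these were 286 ± 10.6, 54.3 ± 6.68, 829 ± 70.9 and 5.4 ± 1.72, and the fold changes of RPL26L1, RPL26, RPL36AL and RPL36A were 0.0046, -0.065, -0.029 and -0.29 on the log2 scale, none past the threshold.

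A few members were read far less than their partners in the same ribosome. RPL17 (15.7, 20.3 and 35.2 without and 28.9, 23.1 and 33.9 with agonist (replicates 1 to 3)), RPL36A (19.8, 23.2 and 36.2 and 20, 28.8 and 15.4) and RPS10 were each below 50 normalized counts in all samples. In GENCODE release 44, 32.9% of the exon bases of RPL17, 31.5% of RPS10, 14.5% of RPL26 and 8.4% of RPL36A are shared on the same strand with another gene, such as the readthrough genes RPL17-C18orf32, RPS10-NUDT3 and RPL36A-HNRNPH2. The part of this sharing, and of reads from near-identical pseudogenes, in the low counts was not tested, and the levels and fold changes of these genes are uncertain. These low genes set the ends of the range, from -0.29 ± 0.31 (RPL36A) to 0.32 ± 0.29 (RPL17). Over the 68 tested members that share under 5% of their exon bases, a set chosen after the values were seen, the median was -0.077 and 24 fell with the block.

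Per kilobase of annotated exon, the most abundant members in untreated samples included RPS2 (4488 ± 134 normalized counts per kilobase, mean ± SD, n = 3), RPS12 (4256 ± 156), RPL8 (3692 ± 57.1) and RPS18 (3021 ± 161). The 3 untreated values of RPS2 and RPS12 overlapped. RPS2 shares 25.9% of its exon bases with other annotated genes. In isoproterenol samples these 4 genes were at 4265 ± 238, 4087 ± 255, 3487 ± 99.9 and 2762 ± 144. Level did not order the decrease among well-read members: across the 71 genes with a mean of at least 1000, the fold change correlated with the log10 level at Pearson r -0.09, with exon length at 0.29 and with exon GC content at 0.12, as a description across genes.

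**Figure D5:**
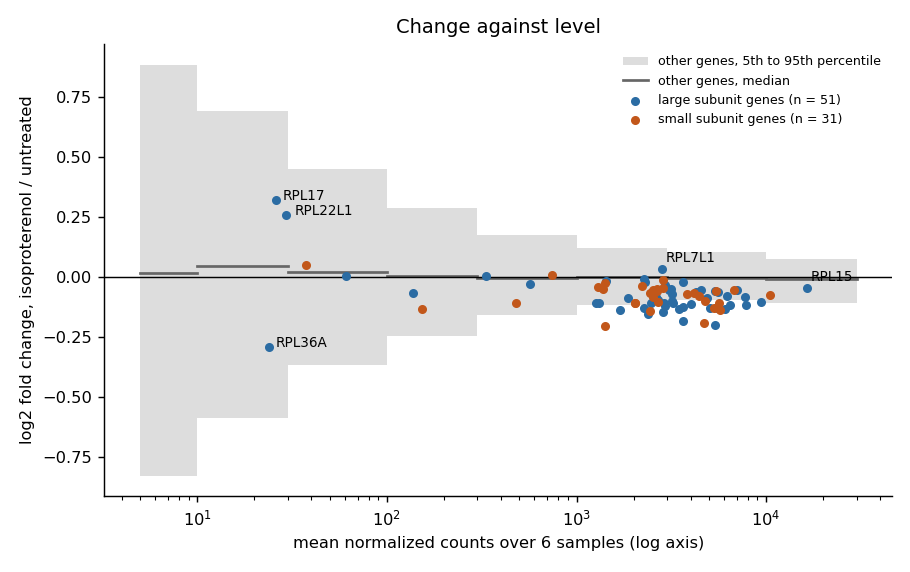
Log2 fold change of isoproterenol over untreated samples against the mean normalized count of the 6 samples (log axis) for the 51 large and 31 small subunit genes tested. Grey blocks span the 5th to 95th percentile of all other genes of that level and grey lines mark their median; the ribosomal protein genes cluster below 0 between about 1000 and 10000 counts, while the few under 100 spread widely on both sides.

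Ribosomal proteins whose genes have other names had values nearer to 0 than the members' median. FAU, which encodes RPS30 fused to a ubiquitin-like protein, was at 1194, 1299 and 1242 without and 1187, 1243 and 1282 with agonist (replicates 1 to 3) (log2 fold change -0.0082 ± 0.045, limma block adjusted p 0.959). Its groups overlapped. RPS27A, a fusion with ubiquitin and a member by name, had -0.048 ± 0.033 (0.522). RACK1, a scaffold on the 40S head, was at 5758, 6099.9 and 5791 and 5636, 5819 and 5543 (-0.054 ± 0.026, 0.265), lower in all 3 pairs.

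Other mRNAs with a known TOP tract also had fold changes below 0. Of 15 listed, 14 were tested, and all 14 had a mean of at least 1000 and a fold change below 0, with a median of -0.079. With the block 7 (50%) fell, against 5.47% of all genes with a mean of at least 1000 and 2.06% of all genes tested. Without the block 0 passed the threshold. This list was written with earlier results of these data known. EEF1A1, the elongation factor that brings transfer RNA to the ribosome, was at 60390.2, 67492 and 58801 without and 54559, 62872 and 51090.1 with agonist (replicates 1 to 3), with overlapping groups and a log2 fold change of -0.15 ± 0.014 (limma adjusted p 8.17e-15 with and 0.79 without the block). The others were EEF2 (-0.071, 0.00178), the initiation factors EIF3E (-0.12, 0.0439) and EIF4B (-0.091, 0.0297), the poly(A) binding protein PABPC1 (-0.079, 0.0366), HNRNPA1 (-0.11, 0.000188) and the nucleolar chaperone NPM1 (-0.11, 0.00157), each with its limma block adjusted p. The number of these 14 genes called lower was 8 in edgeR and 1 in DESeq2 with the block, and 4, 6 and 3 in limma without pair 1, 2 or 3. EEF1A1 passed in all 9 fits with the block, HNRNPA1 and NPM1 in 8, EEF2 in 7, EIF4B in 6, PABPC1 in 5 and EIF3E in 3.

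Genes that make or control ribosomes in other ways showed smaller medians. In each list below 1 gene fell with the block (8.33%, 4.17% and 6.25% of those tested, in order). That share was 2.06% over all genes tested and 5.47% over those with a mean of at least 1000. These single calls are therefore values of single genes and no result about their lists. RNA polymerase I and its factors had a median log2 fold change of -0.027 over 12 tested genes, and 1 fell with the block, UBTF (-0.15 ± 0.034, limma block adjusted p 0.00179), the factor that opens ribosomal DNA, which passed in 8 of the 9 fits with the block. Ribosome assembly factors had a median of -0.051 over 24 genes, and 1 fell, NCL, which encodes the nucleolar protein nucleolin. NCL was at 8704, 8638 and 8626 without and 7459, 7743 and 7709 with agonist (replicates 1 to 3), without overlap, at -0.18 ± 0.023 (limma block adjusted p 2.40e-09, 0.116 without the block). Regulators of TOP mRNAs and ribosomal protein genes had a median of -0.012 over 16 genes, and 1 fell, RHEB, the GTPase that activates mTOR (-0.11 ± 0.035, limma block adjusted p 0.0467), which passed in 5 of these 9 fits.

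The libraries held 18116816 to 21488793 reads, of which 3.44% to 4.54% were mitochondrially encoded. Of reads that were not, members took 1.45% ± 0.067 in untreated and 1.37% ± 0.059 in isoproterenol samples. All 16 glutamatergic neuron markers were read, with summed normalized counts of 165183 to 168600 in untreated and 166198 to 171191 in isoproterenol samples. STMN2, MAP2 and DCX, with means of 65418, 33655 and 26778 over all samples, held most of these sums. TUBB3, NEUROD1 and TBR1 were low, at 79.4, 7.9 and 6.25. Of these 16, 1 passed with the block, GRIN1, which encodes the obligatory subunit of NMDA receptors and was singled out after its values were seen. GRIN1 was at 665, 547 and 672 normalized counts in untreated and 736, 723 and 846 in isoproterenol replicates 1 to 3, without overlap, and rose by 0.29 on the log2 scale (SE 0.060, limma adjusted p 0.000267 with and 0.364 without the block). Some listed markers were not in the table analysed here. The sums of the 3 GABAergic markers were 55.3 to 60 and 66.9 to 79, of 4 of the 8 proliferation markers 490.3 to 521 and 499.5 to 605, of 4 of the 9 pluripotency markers 568 to 615 and 570.3 to 655, of 3 of the 6 astrocyte markers 3138 to 3469 and 3026 to 3361, and of 1 of the 6 fibroblast markers 15.5 to 24.2 and 15.4 to 25.4. The ranges of the GABAergic sums did not overlap, and those of the other lists did. No marker in the table was at 0 in all samples. SLC1A2 held most of the astrocyte sum, with a mean of 3120 over all samples beside 105 for AQP4 and 50.5 for S100B. LIN28B held most of the pluripotency sum, at 584 beside 14.7 for LIN28A, 4.95 for POU5F1 and 0.171 for SOX2. These sums therefore do not show that astrocytes or stem cells were present. Any part of other cell types in the ribosomal protein decrease was not tested.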

How the data were processed

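Per the paper's methods and the labels, the authors selected poly(A) RNA, built directional libraries, aligned reads to GRCh38 with STAR and counted them per gene with featureCounts. The strand setting, annotation release and tool versions are not given in the sources used here. The deposited values are a signal per gene and sample, the read count divided by 1 DESeq2 size factor of that sample, and whole reads were recovered for 100% of values (tolerance 0.1 read), 18116816 to 21488793 per sample. Groups and replicate numbers came from the sample titles.

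Genes with more than 5 reads in at least 4 samples were tested on log2(normalized count + 1) with limma 3.58.1 (trend, robust, two-sided, R 4.3.3), adjusted with Benjamini-Hochberg over all 18130 genes. Fold changes are on that scale, which understates changes of low genes. edgeR 4.0.16 and DESeq2 1.42.0 were run on the recovered reads. The pairing by replicate number was checked on 11587 genes averaging at least 100: after subtracting each group's mean, samples 1, 2 and 3 of both groups correlated at 0.269, 0.493 and 0.388, each above 0.1. Results of a fit with replicate number as a block therefore stand beside calls that they alter. No library was a copy of another (chi-square per degree of freedom 3.44 to 5.73 within groups). Exon lengths and overlaps came from GENCODE release 44, which held 19742 of the gene identifiers (99.6%). Scripts were tested on simulated counts.

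The members and lists were chosen with earlier results of these data known. Named genes are RBM12, members past FDR 0.05 in either limma fit, the 8 lowest and 5 highest tested members with a mean of at least 100, paralog pairs, the 5 most abundant per kilobase, FAU and RACK1, the genes of other pathway lists past FDR 0.05 in either fit, and the 3 genes most alike. RPLP0, RPLP1, RPLP2, RPL12, RPL15, RPS16, RPS13, RPL6, RPS23, RPL36, RPS24, RPS19, RPS26, RPS27A and GRIN1 were added for their role or their values after these were seen. Other cell type markers are named for their level only and are left out of the comparisons below. Values of some single genes are not reported here, although counts and medians over the members include them.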

Additional observations from a re-analysis of the deposited data

How the results depend on the processing

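The median log2 fold change of the members was below 0 in every alternative run (TMM or total-count scaling, edgeR, DESeq2, other pseudocounts and filters, a length and GC correction, the replicate block, and 1 sample or pair left out). It was -0.10 with the length and GC correction, with or without the block (small subunit -0.087). This correction also moved the median of all genes tested, from 0.0015 to -0.016, and with the block 655 genes were then called lower and 402 higher. When 1 sample was left out, the members' median was -0.11 to -0.045 (large subunit -0.12 to -0.056, small subunit -0.10 to -0.043). The value nearest 0 was that without untreated replicate 2. The number of members called lower depended on the replicate block: 0 without it in limma, edgeR, DESeq2 and every scaling, pseudocount, filter and correction, and 31 with it in limma, 35 in edgeR, 5 in DESeq2, 32 with TMM (2.37% of all genes lower), 30 with total-count scaling (1.92%), 40 with the length and GC correction (3.63%), 22, 25 and 14 without pair 1, 2 or 3 (1.15%, 1.74% and 0.976%), and 24 among the members sharing under 5% of exon bases (added after seeing the data). Without the block, leaving out 1 sample gave 0 to 2. Beyond these members, the block changed the calls of the 10 genes of the other lists named as fallen, GRIN1 and COL4A2. With all samples and the deposited values, the block changed no further call of a named gene in limma. RACK1 passed in 1 of the 9 fits with the block, that with the length and GC correction (limma adjusted p 0.0435). Named genes near 0 changed sign: RPL39L was at -0.014 (edgeR), -0.0034 (edgeR with the block), -0.012 (DESeq2) and -0.00016 (DESeq2 with the block). With the block and 1 pair left out, sign changes were without pair 1 RPL39L -0.12, RPS21 -0.040; without pair 2 FAU 0.019, RPL26L1 -0.025, RPL27 0.0012, RPL36AL 0.0092; without pair 3 RPL22 0.029, RPL26 0.077, RPL36A 0.15. With 1 sample left out, the genes that changed sign ranged over EEF2 -0.14 to 0.00093, FAU -0.038 to 0.023, RPL22 -0.066 to 0.022, RPL26 -0.15 to 0.086, RPL26L1 -0.026 to 0.021, RPL27 -0.040 to 0.020, RPL36AL -0.084 to 0.039, RPL39L -0.12 to 0.12, RPS15 -0.038 to 0.0033, RPS21 -0.029 to 0.076. The causes were not tested. Genes under about 100 counts had SE above 0.1, so changes of the members' size were not detectable there.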

Other observations

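The 3 genes outside the family whose levels followed the mean of the members most closely over the 6 samples were HSPA14 (Pearson r 0.996), COL4A2 (0.996) and BCAT2 (0.995), as a description over 6 samples and not a test. COL4A2, which encodes a basement membrane collagen, was at 332, 439 and 371 normalized counts in untreated and 288, 345 and 288 in isoproterenol replicates 1 to 3. Its log2 fold change was -0.31, with a limma adjusted p of 0.0121 with and 0.509 without the block. Because COL4A2 was picked for its likeness to the members, the choice favoured this direction and a low p, which therefore support nothing further. HSPA14, a chaperone that binds ribosomes, was at 168, 197 and 174 in untreated and 153, 172 and 153 in isoproterenol replicates 1 to 3. In COL4A2 and HSPA14 replicate 2 was the highest of its group, which the choice by likeness also favoured.

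Rows named as ribosomal protein pseudogenes numbered 192, of which 134 were tested. Their median level was 23.3 normalized counts, where a change of the size of the members' median was not detectable. Their median log2 fold change was 0.012 and 65 of the 134 (48.5%) were below 0, against 49.5% of all genes tested. Of the 11 tested members with a mean under 1000, 5 were below 0, with a median of 0.0039. In limma 0 of the pseudogene rows passed FDR 0.05 with or without the block, and 3 had an unadjusted p under 0.05. The most read of them, RPS2P5, had a mean of 732 normalized counts, and their summed level per sample was 6895 to 8276.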
